A study of Arabidopsis thaliana with 6 samples.

Results

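The plant circadian clock is a network of transcription factors whose transcripts peak one after another through the day, and 10 of its genes are described here in seedlings of the pkl mutant, in which the gene of the chromatin remodeler PICKLE (PKL) is altered. They were chosen by gene identifier: the dawn genes CCA1 and LHY, the morning genes RVE8, LNK1 and LNK2, and the pseudo-response regulator genes PRR9, PRR7, PRR5, PRR3 and TOC1. Of these 10 genes, 5 had a row among the 3033 gene identifiers of the deposited table: CCA1, LNK2, PRR9, PRR7 and PRR5. LHY, RVE8, LNK1, PRR3 and TOC1 had no row and are therefore not listed as lower in pkl, and their levels were not analysed here.

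Total RNA of whole Arabidopsis thaliana seedlings had been sequenced from 3 libraries of the pkl mutant and 3 libraries of the wild type (WT), all from plants 14 days old in long days. The labels give neither the pkl allele, the accession of the WT, the time of day of harvest nor whether replicates were separate cultures. The deposited table gives 1 level per genotype in FPKM, a fragment count scaled by transcript length and by mapped fragments, so no spread between libraries can be given and the depth is unknown. It holds 2896 loci, every one of which the authors called changed at a q-value under 0.05 and every one of which was lower in pkl.

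In the clock, CCA1 and LHY are MYB-related proteins that repress daytime and evening genes. The pseudo-response regulators, which resemble the receivers of two-component signalling but lack the residue that takes up phosphate, repress CCA1 and LHY in turn, from PRR9 in the morning to TOC1 at dusk. RVE8, of the CCA1 family, activates PRR5 and TOC1 together with the coactivators LNK1 and LNK2. CCA1, LHY and RVE8 bind the evening element, and the G-box is a site for bHLH and bZIP factors, among them the phytochrome-interacting factors of light signalling.

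All listed members were lower in pkl, as was every listed locus. The start regions of all 10 genes were read from the TAIR10.1 assembly at the RefSeq gene starts. They ran from 250 bases before the start to 50 after it. The G-box (CACGTG), the evening element (AAAATATCT) and the CCA1-binding site (AAAAATCT) were searched on both strands. The upstream 250 bases of 4 of the listed members are shown, with every match in capitals, because they hold matches to the motifs searched. CCA1 (chr2:19245341-19245590, plus strand) and PRR9 (chr2:19232357-19232606, plus strand) lie on chromosome 2. PRR7 (chr5:642031-642280, minus strand) and PRR5 (chr5:8358547-8358796, minus strand) lie on chromosome 5.
CCA1: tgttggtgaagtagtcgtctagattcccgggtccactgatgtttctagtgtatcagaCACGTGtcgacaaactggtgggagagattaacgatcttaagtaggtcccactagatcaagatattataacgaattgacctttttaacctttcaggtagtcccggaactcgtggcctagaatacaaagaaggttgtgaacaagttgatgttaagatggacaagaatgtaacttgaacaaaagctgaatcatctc
PRR9: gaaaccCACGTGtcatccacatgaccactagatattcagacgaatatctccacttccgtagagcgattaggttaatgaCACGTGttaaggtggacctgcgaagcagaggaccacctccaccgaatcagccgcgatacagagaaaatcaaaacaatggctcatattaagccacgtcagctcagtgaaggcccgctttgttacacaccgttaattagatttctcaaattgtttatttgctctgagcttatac
PRR7: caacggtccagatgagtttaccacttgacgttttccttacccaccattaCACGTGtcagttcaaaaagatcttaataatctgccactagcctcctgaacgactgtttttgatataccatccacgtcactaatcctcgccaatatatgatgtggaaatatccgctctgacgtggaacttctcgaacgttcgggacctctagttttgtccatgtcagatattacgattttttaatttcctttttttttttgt
PRR5: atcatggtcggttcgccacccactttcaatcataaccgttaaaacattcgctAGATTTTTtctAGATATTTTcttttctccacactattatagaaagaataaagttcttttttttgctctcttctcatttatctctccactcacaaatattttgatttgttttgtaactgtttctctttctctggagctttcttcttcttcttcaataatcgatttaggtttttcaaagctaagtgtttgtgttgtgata

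The capitals mark a G-box in CCA1, PRR9 and PRR7, and in PRR5 a CCA1-binding site followed by an evening element, both read on the opposite strand. No 2 of the matches in the members overlapped. The G-box began 193 bases before the gene start in CCA1 and 201 bases before it in PRR7, and PRR9 had G-boxes 244 and 172 bases before it. In PRR5 the CCA1-binding site began 198 bases and the evening element 187 bases before the start. These distances are from the RefSeq gene start. The tested PRR5 locus reached upstream of that start and took in the whole PRR5 window shown, and bases upstream of that locus were not searched.

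For the other members with a match, 25 bases around it are enough to compare the flanks, and PRR9 is shown again for its evening element after the gene start. The windows are chr3:20179031-20179055 (LNK2, minus strand), chr1:37936-37960 (LHY, minus strand), chr3:2946241-2946265 (RVE8, plus strand), chr5:25676810-25676834 (LNK1, minus strand), chr2:19232625-19232649 (PRR9, plus strand) and chr5:24674804-24674828 (TOC1, plus strand).
LNK2: ctcgtttggCACGTGaccatttcat
LHY: caatatcacCACGTGtcgatctgcg
RVE8: acaagtctaCACGTGcttcaagctt
LNK1: tttagttgcCACGTGttgatatcat
PRR9: ctctgagaAGATATTTTcgtggttg
TOC1: atatcatgAGATATTTTctccaaga

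The first 4 of these hold a G-box and the last 2 an evening element. The G-boxes of RVE8 and LNK2 also lay after the gene start, beginning at bases 12 and 25 of the gene. That of LNK1 began 2 bases before the start. Over all members, 7 of 10 start regions held a G-box, against 7.68% of 27443 protein-coding genes, and 9.67% of 2959 genes listed as lower in pkl. The 7 were the genes with known peaks from dawn to midday, CCA1, LHY, RVE8, LNK1, LNK2, PRR9 and PRR7, whereas PRR5, PRR3 and TOC1 held none. This split by peak time was not planned and was not tested. The evening element stood in 3 of 10 members, PRR9, PRR5 and TOC1, against 2.82% of all genes and 4.39% of listed genes. The CCA1-binding site stood in PRR5 alone of the 10, against 7.88% of all genes. The shares of all genes also cover genes that may not have been tested, whereas every listed gene lies in a tested locus. Members with a row and members without one both held G-boxes (4 of 5 listed members) and evening elements (2 of 5 listed members). A match describes these letters and does not show that a factor was bound, and no match says only that they are not in this window.

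**Figure D1:**
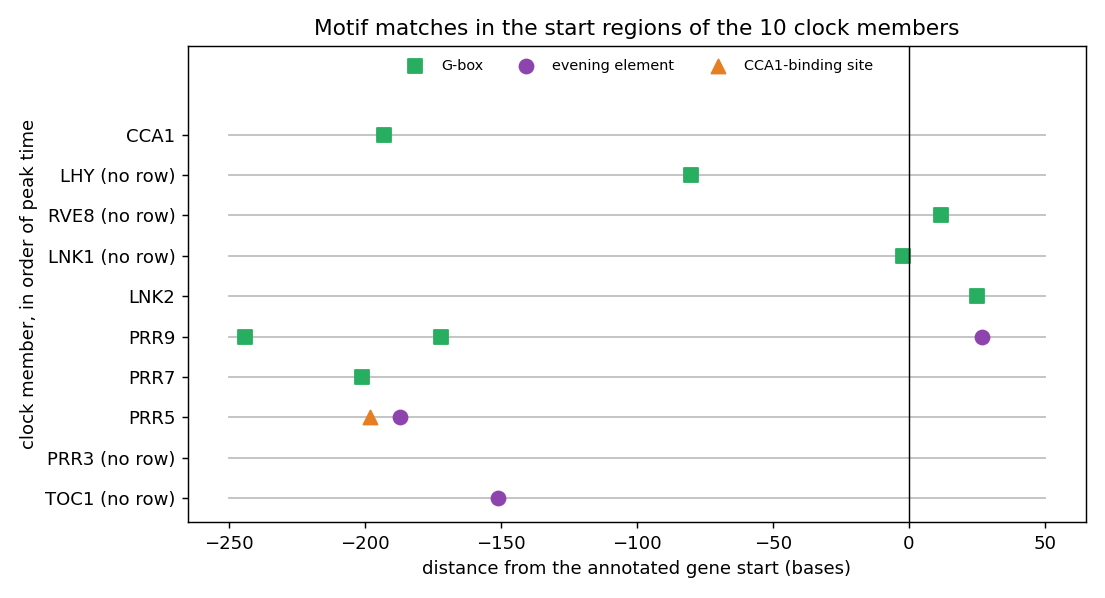
Motif matches from 250 bases before to 50 bases after the annotated start of the 10 clock members, ordered from dawn to dusk, with the distance from the gene start in bases on the x axis. Squares mark the G-box, circles the evening element and the triangle the CCA1-binding site. The 7 upper genes each hold a G-box, and the 3 lowest hold none.

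In the mutant, the PKL transcript (AT2G25170) itself stood at 6.79 FPKM, against 19.2 FPKM in WT (log2 fold change -1.50), with a q-value of 0.000338 in the authors' deposited table. The p-values and q-values of the table imply 19554 tests, so the 2896 lower loci were 14.8% of what was tested. Of the 10 clock members, 5 were listed as lower in pkl, beside this background of 14.8%. Every member is counted as tested, which the table does not show for those without a row. The members were also chosen with earlier results of these data known, so these counts are description only. At a q-value under 0.01 in the authors' deposited table, 3 of 10 members were lower (LNK2, PRR7 and PRR5), beside 11.0% of all tests. At a difference of at least 2-fold, 2 of 10 were lower (PRR9 and PRR5), beside 3.83% of all tests. PRR9 passes that limit only without a pseudocount.

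The 5 listed members fell into a pair at about 1 FPKM, CCA1 and PRR9, and 3 loci of far higher level, those of LNK2, PRR7 and PRR5. The spans of these 3 loci take in other coding genes, and the row of PRR7 also names a neighbour. The order of levels by locus, from the highest down, was PRR7, LNK2, PRR5, CCA1 and PRR9 in pkl, and it was the same in WT. Without values per library, whether neighbours in that order differ beyond their spread cannot be given. In whole seedlings, fewer cells expressing a gene and less RNA per cell cannot be told apart. All of these transcripts cycle over the day, so a lower level and a shift in the time of the peak cannot be told apart either.

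**Figure D2:**
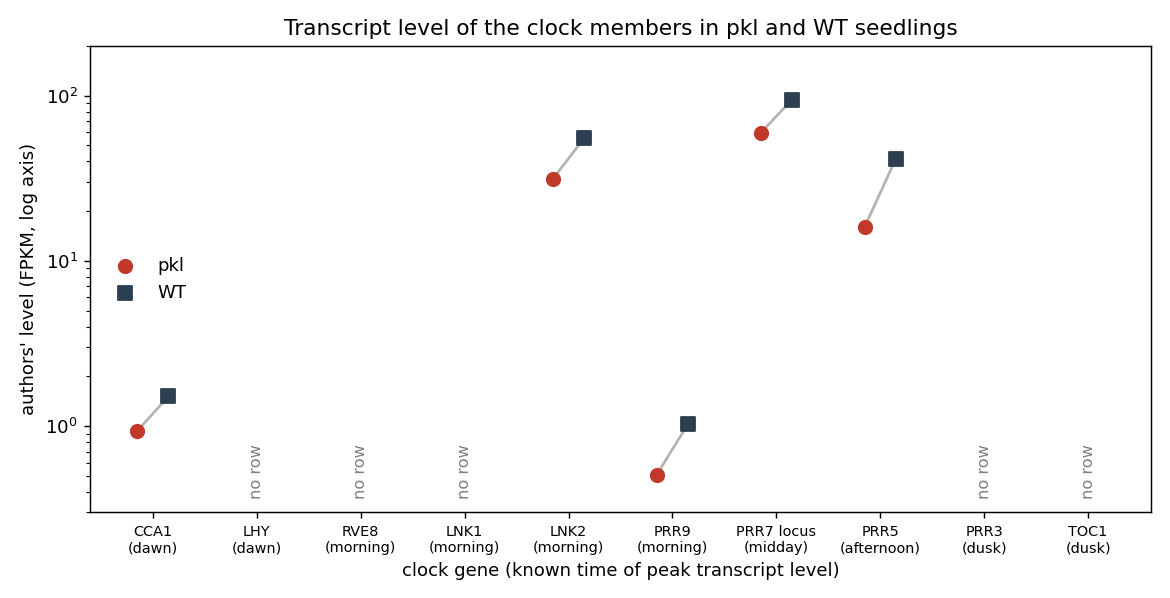
Level of the 10 clock members in pkl (circles, left) and WT (squares, right), in FPKM on a log axis, ordered by the known time of their peak. Each point is the authors' value for the genotype, without an error bar because no values per library were used, and genes without a row carry no point. All 5 pairs slope up to WT, as they must for loci listed as lower in pkl, and CCA1 and PRR9 lie far below the other 3. The PRR7 points are values of a locus that also names a neighbouring gene.

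Among the dawn genes, CCA1 (AT2G46830), the MYB-related repressor, stood at 0.933 FPKM in pkl and 1.51 FPKM in WT, so that it fell by 0.578 FPKM. This was 1.62-fold lower in pkl, with a log2 fold change of -0.70, a p-value of 0.00435 and a q-value of 0.0176 in the authors' deposited table. CCA1 was near the bottom of the table in level: only 5.28% of listed loci had a lower WT value. Listed loci of such low level mostly differed by more, and of 358 listed loci within 2-fold of its WT level 86.9% had a larger fall than CCA1. Only loci that passed the q-value limit are compared, and how that limit shapes the falls listed at low level was not tested. With a pseudocount of 1 FPKM its log2 fold change was -0.38. LHY, its close partner in repression, had no row.

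Of the morning activators, LNK2 (AT3G54500), a coactivator without a DNA-binding domain of its own, was at 31.4 FPKM in pkl, against 55.2 FPKM in WT. It fell by 23.8 FPKM, or 1.76-fold (log2 fold change -0.82), with a q-value of 0.000338 in the authors' deposited table. Among 725 listed loci of similar WT level, 22.1% fell further than LNK2. RVE8 and LNK1, which act with LNK2, had no row.

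The pseudo-response regulators, which are 5 of the 10 members, accounted for 3 of the 5 listed members. PRR9 (AT2G46790), the earliest of them to peak, stood at 0.508 FPKM in pkl and 1.03 FPKM in WT, a 2.03-fold difference (log2 fold change -1.02). The log2 fold change of PRR9 was -0.89 with a pseudocount of 0.1 FPKM and -0.43 with one of 1 FPKM, both under 2-fold. The authors' deposited table gives PRR9 a p-value of 0.0027 and a q-value of 0.0117. As with CCA1, its level was low, and 70.7% of the 239 listed loci of similar WT level had a larger fall.

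The locus of PRR7 (AT5G02810), which peaks around midday, had the highest level of the members, at 59.6 FPKM in pkl and 94.6 FPKM in WT. It fell by 35.0 FPKM and was 1.59-fold lower in pkl (log2 fold change -0.67), the smallest fold of the 5. The q-value was 0.000338 in the authors' deposited table, and 32.1% of 511 listed loci of similar WT level fell further. The row also names CDL1 (AT5G02800), a kinase gene, so the value belongs to the locus rather than to PRR7 alone.

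PRR5 (AT5G24470), which peaks in the afternoon, had the largest fold of the listed members. It stood at 16.1 FPKM in pkl, against 41.5 FPKM in WT. It fell by 25.5 FPKM, or 2.58-fold (log2 fold change -1.37). The q-value was 0.000338 in the authors' deposited table. Of all listed loci 13.2% fell further than PRR5, and of the 808 at a similar WT level 7.18% did. PRR3, which stabilises TOC1, and TOC1 itself, the dusk member of the family, had no row.

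Across the 5 listed members the folds ran between 1.59 and 2.58, with a median of 1.76 (log2 fold change -0.82). Over all 2896 listed loci the median was 1.52-fold (log2 fold change -0.60). Both medians cover listed loci only, which had to differ to be listed.

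**Figure D3:**
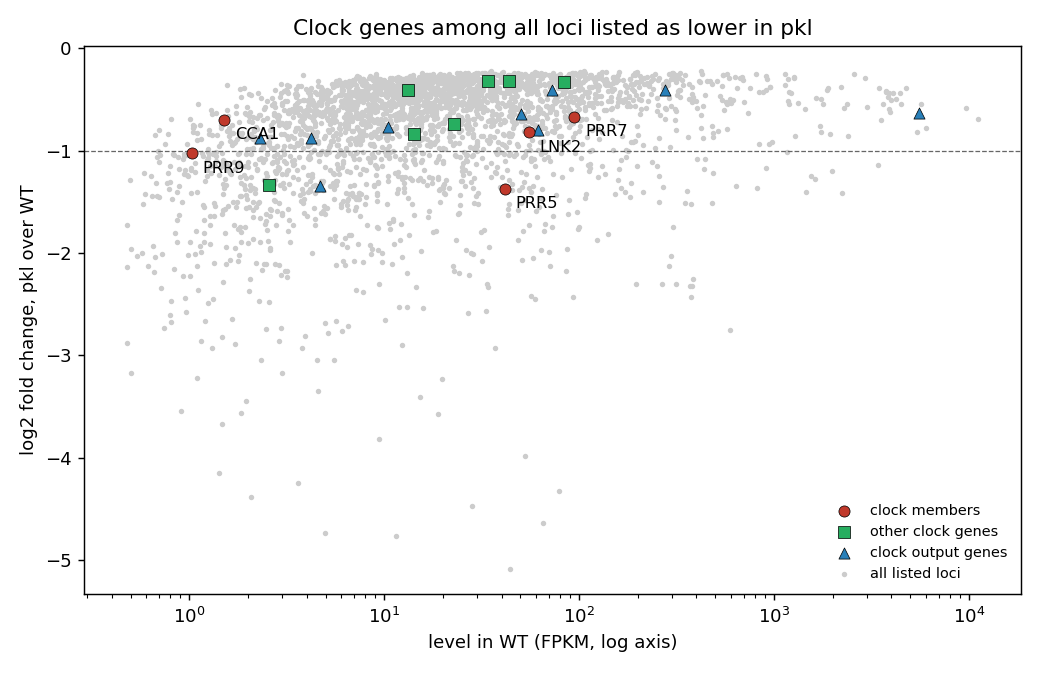
All 2896 loci listed as lower in pkl (grey), with the WT level in FPKM on a log x axis and the log2 fold change of pkl over WT on the y axis; circles are the 5 listed clock members, squares 7 other clock genes and triangles 9 clock output genes. The dashed line marks a 2-fold difference. PRR5 lies low among loci of its level, whereas CCA1 lies near the upper edge of the loci of low level.

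The spans of the tested loci differed in how well they isolate the member. The CCA1 and PRR9 loci lay within their genes and took in no other gene. The LNK2 locus (chr3:20173619-20179154 in TAIR10) ran on over the neighbouring gene RPB5E, annotated as an RNA polymerase subunit and on the opposite strand, and LNK2 made up 66.9% of the span. A natural antisense transcript, AT3G08405, is also annotated within LNK2. The PRR5 locus (chr5:8354593-8358873) ran on over AT5G24460, a gene for a RING-type zinc finger protein on the opposite strand, and PRR5 made up 54.7% of it. The PRR7 locus (chr5:632796-642220) took in CDL1 on the same strand and GSTL3, of a family of glutathione transferases, on the opposite strand, and PRR7 made up 46.2% of it. The LNK2, PRR5 and PRR7 loci also reached upstream of the RefSeq starts of these genes.

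Neither RPB5E, AT5G24460 nor GSTL3 was named in the table. A span that takes in at least 80% of another coding gene occurred at 411 (14.99%) of the 2742 loci that name 1 gene. The strandedness of the libraries is not given, and the part of these neighbours in the LNK2, PRR5 and PRR7 values was not tested. None of the 10 members had a coding copy at 95% identity over 80% of its length.

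**Figure D4:**
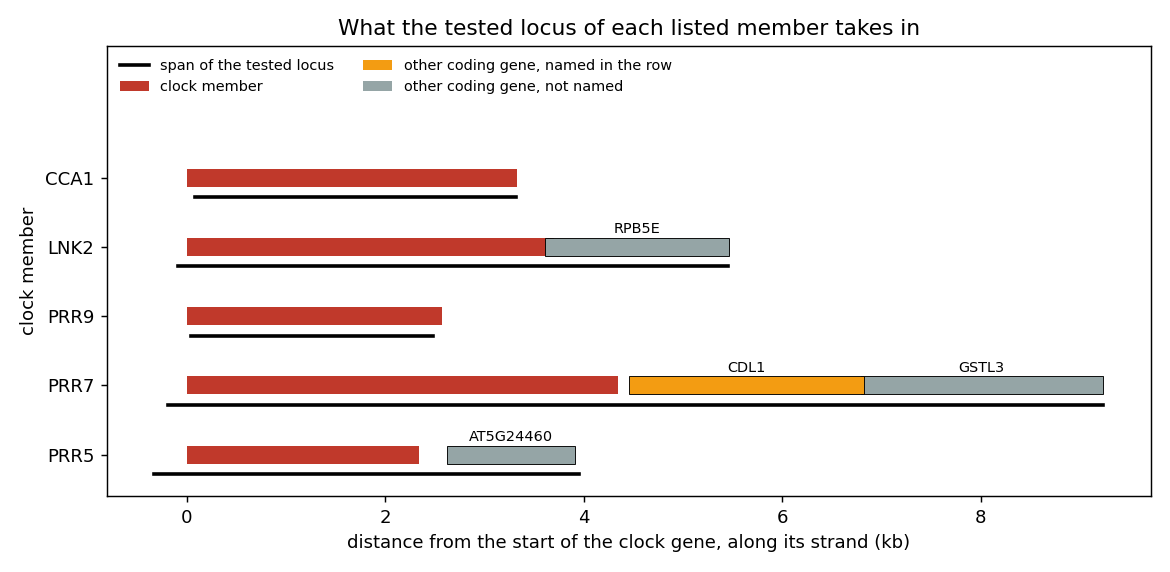
Span of the tested locus (black line) and annotated coding genes (boxes) for the 5 listed members, as distance in kb from the start of the clock gene along its own strand. Red boxes are the clock members, the orange box is a neighbour named in the row and grey boxes are neighbours that are not named. The spans of CCA1 and PRR9 hold the member alone, and those of LNK2, PRR7 and PRR5 extend past its end over neighbouring genes.

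Outside the 10 members, 7 of 27 other clock genes (25.9%) were listed as lower in pkl, beside the same 14.8% of all tests. This list, too, was chosen with earlier results of these data known, and its genes without a row are counted as tested. The 7 listed genes were RVE1, RVE2, RVE4 and RVE7, of the CCA1-related REVEILLE family, with LNK4, GI and CHE. The lists held 8 genes of the REVEILLE kind, of which these 4 had a row and 4 had none: RVE8 and the homeodomain-like genes AT1G01520, AT4G01280 and AT5G52660. RVE1 (AT5G17300), which links the clock to auxin synthesis, stood at 1.02 FPKM in pkl and 2.56 FPKM in WT, a 2.52-fold difference. RVE7 (AT1G18330) was at 7.98 FPKM in pkl and 14.2 FPKM in WT, 1.78-fold lower. RVE2 (AT5G37260) was 1.33-fold lower, at 10.05 FPKM in pkl against 13.3 FPKM in WT. RVE4 (AT5G02840), a relative of RVE8 that shares its role as an activator, was 1.25-fold lower, at 34.9 FPKM in pkl against 43.7 FPKM in WT.

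LNK4 (AT5G06980), a small relative of LNK2, was at 13.7 FPKM in pkl and 22.9 FPKM in WT, 1.67-fold lower. LNK2 and LNK4 were thus listed, and LNK1 and LNK3 were not. GI (AT1G22770), which stabilises the photoreceptor ZTL, was 1.25-fold lower, at 27.4 FPKM in pkl and 34.1 FPKM in WT. CHE (AT5G08330), a repressor of CCA1, was 1.26-fold lower, at 66.2 FPKM in pkl and 83.4 FPKM in WT. In the authors' deposited table these 7 genes had q-values between 0.000338 and 0.00623. The spans of RVE1 and RVE7 each took in another coding gene.

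None of the 4 genes ELF3, ELF4, LUX and BOA, which form the evening complex or are close to it, had a row, and neither had the 3 genes of the ZTL family of light-sensing F-box proteins. TIC, LWD1, LWD2, LNK3, JMJD5, PRMT5, XCT, SKIP, TCP20 and TCP22 had none either. The median fold of the 7 listed genes was 1.33, against 1.76 for the 5 members, and the difference between these was not tested.

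Of 22 genes whose transcripts the clock is known to drive, 9 (40.9%) were listed as lower in pkl, again beside 14.8%. These 22 were likewise chosen with earlier results of these data known, and those without a row are counted as tested. The list held 4 genes of Dof-type factors, and 3 of them were listed: CDF1, CDF2 and CDF3, which repress CONSTANS and are themselves repressed by the pseudo-response regulators. The other one, AT1G69570, had no row. CDF1 was at 1.26 FPKM in pkl and 2.31 FPKM in WT, CDF2 at 2.29 FPKM in pkl and 4.21 FPKM in WT, and CDF3 at 6.12 FPKM in pkl and 10.5 FPKM in WT. Their folds were 1.84, 1.84 and 1.71. PIF4, a bHLH factor of growth in light, was at 35.2 FPKM in pkl and 61.3 FPKM in WT, 1.74-fold lower, and PIF5 was at 54.9 FPKM in pkl and 72.6 FPKM in WT, 1.32-fold lower.

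CBF2, a factor of the cold response, was at 1.84 FPKM in pkl and 4.66 FPKM in WT, 2.53-fold lower. The catalase gene CAT2 was at 208 FPKM in pkl and 277 FPKM in WT, 1.33-fold lower. The antenna gene LHCB1.1 was at 3575 FPKM in pkl and 5524 FPKM in WT, and it has 2 near-identical copies, AT1G29910 and AT1G29930, so how its reads were divided is uncertain. AT4G33980, which has no symbol in the annotation, was 1.56-fold lower, at 32.5 FPKM in pkl and 50.5 FPKM in WT. In the authors' deposited table these 9 genes had q-values between 0.000338 and 0.00765. GRP7, GRP8, CO, FT, COL1, COL2, BBX18, BBX19, COR27, CAT3, CBF1 and CBF3 had no row.

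**Figure D5:**
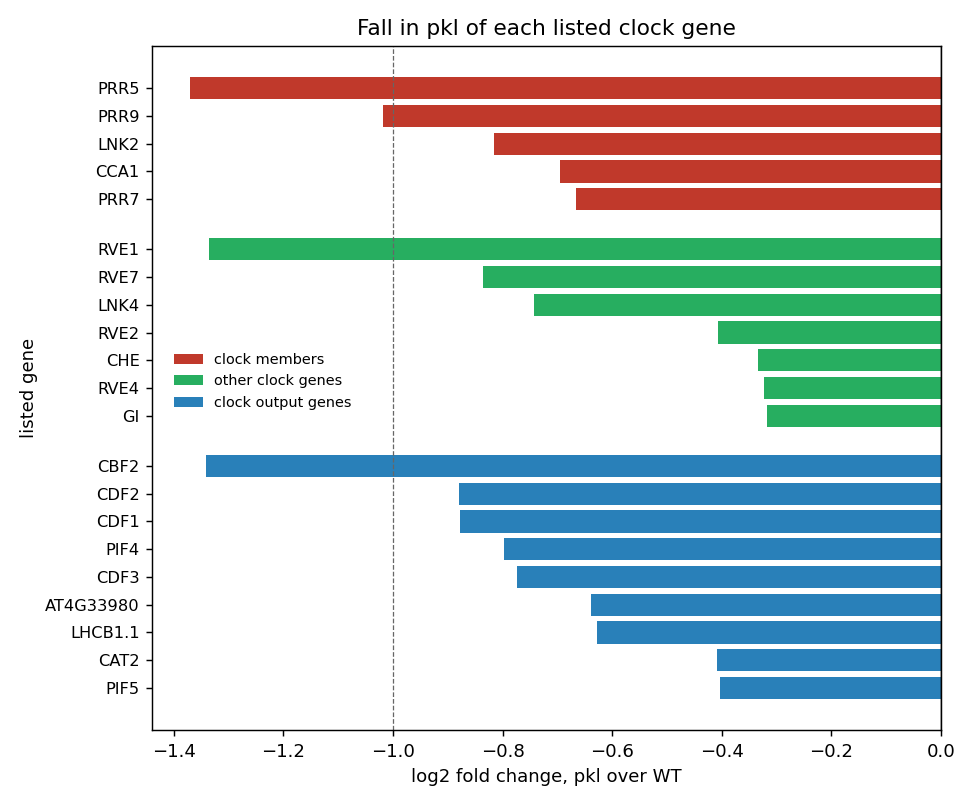
Log2 fold change of pkl over WT for each listed clock gene, grouped from the top into the 5 members, 7 other clock genes and 9 clock output genes; the dashed line marks a 2-fold difference. Bars are ratios of the authors' values and carry no error. PRR5 and PRR9 among the members, RVE1 among the other clock genes and CBF2 among the outputs pass the 2-fold line.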

How the data were processed

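Total RNA of 3 pkl and 3 WT libraries had been aligned and tested with TopHat, Cufflinks 2.1.1 and Cuffdiff 2.1.1 on TAIR10, per the submitters' processing notes. Per the file headers, the deposited table gives 1 FPKM value per genotype and locus, the log2 fold change of pkl over WT, a test statistic (a signed score, not used here), and the authors' p-value and q-value. The deposited log2 fold change matched the ratio of the FPKM columns within 1.2e-05. The table holds loci lower in pkl only; other loci were not analysed here. No counts, spread or depth per library were used.

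Rows were matched by gene identifier, split at commas. The number of tests was the whole number between 2896 and 38999 that made the ratio of p to q a whole rank for all 285 pairs of p and q (within 0.017 for 19554, against 0.311 for 19555). On simulated data the true number was found in 20 of 20 tables. Starts are printed counted from 1. Symbols and gene spans came from RefSeq TAIR10.1. It held 3024 of the 3033 identifiers, and the deposited TAIR10 span overlapped the RefSeq gene at 2740 of 2740 loci that name 1 annotated gene. Copies were sought with BLAST+ 2.17.0. Other scripts used Python 3.11.15 and pandas 2.3.3.

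No test was run beyond the authors' own. The genes named were all members, PKL, and both further lists. The members and lists were chosen with earlier results of these data known. Alternatives were stricter q, fold and level limits, pseudocounts of 0.1 and 1 FPKM, Bonferroni adjustment and loci of 1 gene; the limit to spans with no other gene was added after the data were seen.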

Additional observations from a re-analysis of the deposited data

How the results depend on the processing

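Of the 5 members listed as lower in pkl, 3 were left at a q-value under 0.01, 2 with at least a 2-fold difference, 3 with at least 5 FPKM in WT, and 2 (CCA1 and PRR9) among loci whose span takes in no other gene. Loci of a single gene left 4, and limits of 1.5-fold or 1 FPKM in WT left 5. Of the 7 other clock genes listed, out of 27, 1 was left at 2-fold and 3 at 1.5-fold. Of the 9 output genes listed, out of 22, 1 was left at 2-fold. Of all tests 3.83% were lower by at least 2-fold, so at that limit both lists were near the share of all tests. Bonferroni adjustment left 0 in each list, since no listed p is below 5e-05 and the values imply 19554 tests. The median log2 fold change of the listed members, -0.82, became -0.66 with a pseudocount of 1 FPKM and -0.92 among loci of a single gene. That pseudocount took CCA1 to -0.38 and PRR9 to -0.43. A pseudocount can shrink a fold change but cannot change its direction, so only the size is informative here. Leaving out each replicate and recentring on all tested loci were not run, since they need values per library or loci outside the table. No paired analysis was possible because the values used here are 1 per genotype, and values per library were not analysed. The depth behind each level is unknown, which limits CCA1 and PRR9 most.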

Other observations

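PRR9 and CCA1 are close neighbours on chromosome 2: their loci were 10584 bases apart. Between them lay PSI-P (AT2G46820), a gene of a thylakoid protein, 530 bases from the CCA1 locus. It was at 916 FPKM in pkl and 1324 FPKM in WT, 1.45-fold lower, whereas ZAT (AT2G46800) and AT2G46810, also between them, had no row. On chromosome 5, the RVE4 locus lay 6483 bases from the PRR7 locus. The glutathione transferase gene GSTL1 (AT5G02780), 112 bases from the PRR7 locus, was 4.29-fold lower, at 0.359 FPKM in pkl and 1.54 FPKM in WT. RHL2 (AT5G02820), on its other side, was 1.29-fold lower, at 11.9 FPKM in pkl and 15.5 FPKM in WT. The window searched was 15000 bases on each side of a member's locus. It also held AT5G02860 by PRR7, 1.24-fold lower. By PRR5 it held AT5G24450 and AT5G24490, 1.18-fold and 1.21-fold lower. Genes without a row in these windows were not counted, so no listed share can be set beside the 14.8% of all tests. These neighbours were looked up after the members' values were seen, and no test was run on them.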
